A study of Mus musculus with 8 samples.

Results

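The genes described here are 10 receptors and bridging molecules through which phagocytes recognize apoptotic cells: *Mertk*, *Axl*, *Tyro3*, *Gas6*, *Pros1*, *Mfge8*, *Tgm2*, *Stab1*, *Itgav*, and *Lrp1*. They were chosen by name, for this role, and each has 1 row among the 54146 genes counted. Bulk RNA-Seq was performed on macrophages sorted from epididymal white adipose tissue (eWAT) of 4 C57Bl6 mice. All mice had been fed a high-fat diet ad libitum for 24 weeks, followed by 2 weeks of short-term caloric restriction (stCR) on 30% less food. The study's methods describe the diet used to induce obesity as high in both fat and cholesterol. Both populations thus share the diet and the restriction, and neither a fed control nor a lean one was compared here. Cells that were CD45+, CD3-, B220-, Ly6G-, SiglecF-, and CD11b+ were sorted by surface FCGR4, an activating receptor for IgG, into an FCGR4+ and an FCGR4- population. Each mouse gave 1 library of each, so there were 8 libraries in 4 pairs, and the question for each gene was whether its level differed between the populations of the same mouse.

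Engulfment of dying cells, or efferocytosis, begins when a phagocyte reads phosphatidylserine on the outer face of the dying cell. MERTK, AXL, and TYRO3 are the receptor tyrosine kinases of the TAM family and do not bind this lipid themselves. Their ligands GAS6 and protein S (*Pros1*) hold the lipid with a vitamin K–dependent domain and the receptor with another. MFGE8 bridges the lipid to integrins that contain the αv chain (*Itgav*), and transglutaminase 2 (*Tgm2*) works beside them at the cell surface. Stabilin 1 (*Stab1*) binds phosphatidylserine directly, and LRP1 takes up cells that display calreticulin or are coated with C1q.

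By edgeR's quasi-likelihood test, 0 of the 9 genes with enough counts to test passed the threshold, an adjusted P under 0.1, between FCGR4+ and FCGR4- macrophages, where 1.27% of all tested genes passed. DESeq2 called *Mertk* and *Itgav* higher, where it called 5.99% of all genes in either direction and 1.12% higher. These came nearest in edgeR as well, each with a mean level in FCGR4+ macrophages 1.37 times that in FCGR4- macrophages and a higher value in 4 of 4 mice. *Gas6* had a log2 fold change of -0.44, with lower values in FCGR4+ macrophages of 3 of 4 mice. *Tgm2* differed in opposite directions in mice 1 and 2 and in mice 3 and 4. *Tyro3* was at or near 0 in every library.

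The TAM receptors lay far apart in level, and their promoter sequences are shown for that reason, together with that of *Itgav*. Among the 9 tested genes *Itgav* had the largest log2 fold change in the main edgeR fit, 0.46, with *Mertk* close behind at 0.43. Each runs from 250 bases before to 50 bases after the RefSeq transcription start on GRCm38.p6, which is the mm10 assembly, 5′ to 3′ on the gene's strand. Capitals mark matches to the Sp1 box GGGCGG on either strand (read as CCGCCC on the other), and in *Itgav* also the PU.1 core GAGGAAGT (read as ACTTCCTC). Where capitals run on beyond 6 bases in *Tyro3*, several Sp1 matches overlap. The windows are chr2:128698665-128698964 (plus strand) for *Mertk*, chr7:25788684-25788983 (minus strand) for *Axl*, chr2:119799264-119799563 (plus strand) for *Tyro3*, and chr2:83724147-83724446 (plus strand) for *Itgav*.
Mertk: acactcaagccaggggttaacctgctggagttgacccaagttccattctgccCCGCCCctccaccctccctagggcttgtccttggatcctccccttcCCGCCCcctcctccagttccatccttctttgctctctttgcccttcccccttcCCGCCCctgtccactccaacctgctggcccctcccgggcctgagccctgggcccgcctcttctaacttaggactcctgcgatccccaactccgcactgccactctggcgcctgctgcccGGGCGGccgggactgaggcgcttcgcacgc
Axl: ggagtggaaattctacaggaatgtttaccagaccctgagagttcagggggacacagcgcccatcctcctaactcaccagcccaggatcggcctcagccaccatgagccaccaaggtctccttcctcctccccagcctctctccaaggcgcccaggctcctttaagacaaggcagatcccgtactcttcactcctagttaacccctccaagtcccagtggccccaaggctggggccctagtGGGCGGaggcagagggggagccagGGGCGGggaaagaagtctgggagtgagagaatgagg
Tyro3: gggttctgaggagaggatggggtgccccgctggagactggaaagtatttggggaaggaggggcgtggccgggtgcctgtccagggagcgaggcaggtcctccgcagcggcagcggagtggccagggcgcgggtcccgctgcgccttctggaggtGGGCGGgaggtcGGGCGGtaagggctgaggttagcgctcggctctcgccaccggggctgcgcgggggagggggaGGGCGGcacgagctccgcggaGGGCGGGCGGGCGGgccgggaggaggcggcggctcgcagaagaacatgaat
Itgav: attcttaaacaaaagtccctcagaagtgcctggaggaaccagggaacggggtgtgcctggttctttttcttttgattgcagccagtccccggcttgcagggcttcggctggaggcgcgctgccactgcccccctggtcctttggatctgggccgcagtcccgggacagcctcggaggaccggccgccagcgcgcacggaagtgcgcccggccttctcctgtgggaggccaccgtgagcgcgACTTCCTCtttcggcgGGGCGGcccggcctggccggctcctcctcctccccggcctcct

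RefSeq promoters were matched for 9 of the 10 genes, *Tgm2* being the gene without an entry. The Sp1 box was found in 8 of these 9, the exception being *Stab1*, and in 35.7% of 32851 mouse promoters of the same length. *Tyro3* held 6 matches, *Mertk* 4, *Axl* 2, and *Itgav* 1. The *Tyro3* window had the highest GC content of the 9 at 73.3%, against 66.0% for *Mertk*, 60.3% for *Axl*, 67.3% for *Itgav*, and a median of 52.7% over all promoters. It lies inside the counted gene, which starts upstream of it at base 119797733 of chromosome 2. The window may therefore not be the promoter of the counted transcript. No relation between these letters and expression level was tested. The PU.1 core, a site named for a factor that macrophages express, was found in *Itgav* and in 3.20% of all promoters. Matches to AP-1 (TGANTCA, in 7.81% of promoters), the MAF site (TGCTGAC, 4.67%), the interferon-stimulated response element (3.44%), the LXR element of direct repeats (0.0152%), and the TATA box (TATAAA, 13.6%) were not found in any of the 9 windows. These counts describe letters in a window, and no binding was measured.

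The libraries held between 35992794 and 66856746 counts, and 3 counts, taken as the floor of detection, correspond to between 0.0440 and 0.0883 normalized CPM, the counts scaled to library size. The sort could be read in the sorted gene: *Fcgr4* was 3.02 times higher in FCGR4+ macrophages, with no overlap between populations (log2 fold change 1.61, SE 0.173; edgeR's quasi-likelihood test gave an adjusted P of 0.0162). The macrophage markers *Lyz2*, *Cd68*, *Csf1r*, and *Adgre1* were abundant in every library, and the 10 markers of this label summed to 22456 to 47157 CPM in FCGR4+ and 19361 to 44426 CPM in FCGR4- libraries. Most of this sum was *Lyz2*. Of the 10 markers, *Cd163*, a scavenger receptor, fell by 0.96 on the log2 scale (adjusted P = 0.0602, edgeR), and the other 9 did not pass; DESeq2 called 4 higher (*Adgre1*, *Mrc1*, *Fcgr1*, *Maf*) and 1 lower (*Cd163*). Genes of other cells were present as well and were mostly higher in FCGR4- libraries. All 6 tested mast cell and basophil markers fell in FCGR4+ libraries, their sum lying between 6.85 and 23.0 CPM there and between 192 and 2049 CPM in FCGR4- libraries. Of 8 fibroblast matrix genes, 4 fell by edgeR and 8 by DESeq2, each lower in 4 of 4 mice, with a summed level of 147 to 303 CPM against 371 to 1595 CPM. Dendritic cell markers summed to 6.56 to 15.2 CPM against 41.3 to 93.3 CPM, neutrophil markers to 60.5 to 484 CPM against 306 to 2132 CPM, and T and NK cell markers to 3.49 to 8.05 CPM against 14.4 to 48.0 CPM. Among all markers of other cells, *Mcpt8* of basophils was the single gene at 0 in every FCGR4+ library. Since the libraries are bulk samples, fewer cells of a type and less RNA per cell cannot be told apart.

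**Figure D1:**
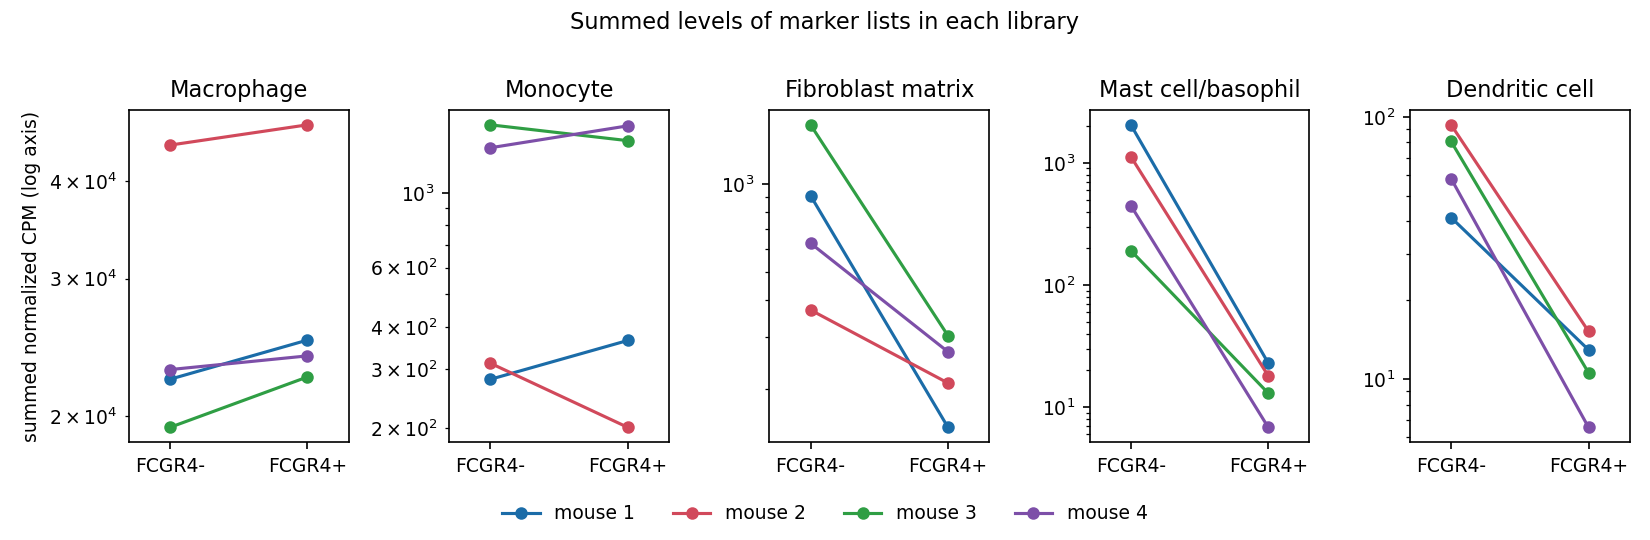
Summed normalized CPM of 5 marker lists (log axes, each panel with its own scale) in the FCGR4- and FCGR4+ library of each of 4 mice, a line joining the libraries of 1 mouse. Fibroblast matrix, mast cell and basophil, and dendritic cell sums are lower in FCGR4+ in 4 of 4 mice, whereas monocyte sums separate mice 3 and 4 (1359 to 1590 CPM) from mice 1 and 2 (201 to 365 CPM) in both populations.

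Mice 1 and 2 carry 1 animal ID prefix in the labels and mice 3 and 4 another, and the labels do not say what the prefix stands for. The monocyte markers, led by *Ly6c2*, *Ccr2*, and *Plac8*, summed to 1427 and 1579 CPM in FCGR4+ and 1590 and 1359 CPM in FCGR4- libraries of mice 3 and 4. In mice 1 and 2 they summed to 365 and 201 CPM in FCGR4+ and 280 and 312 CPM in FCGR4- libraries. The sum thus separated the mice. Of its 5 genes, 2 fell in FCGR4+ macrophages and were lower in 4 of 4 mice, *Vcan* among them (log2 fold change -1.44, adjusted P = 0.0602, edgeR). The part of monocytes in the results below was not tested.

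*Mertk*, the TAM receptor known above all for efferocytosis by macrophages (ENSMUSG00000014361, mm10 chr2:128698956-128802894), was at 109, 151, 44.5, and 41.4 CPM in FCGR4+ macrophages of mice 1, 2, 3, and 4. In FCGR4- macrophages of the same mice it was at 77.3, 108, 30.8, and 35.3 CPM. Every mouse had more in its FCGR4+ cells, but the populations overlapped widely because both libraries of mice 1 and 2 stood above all libraries of mice 3 and 4. The per-mouse log2 ratios were 0.50, 0.48, 0.53, and 0.23, and the fitted log2 fold change was 0.43 with an SE of 0.128 (95% CI, 0.13 to 0.73). By edgeR's quasi-likelihood test, the unadjusted P value was 0.0111 and the adjusted one 0.291, so *Mertk* did not pass the threshold of 0.1. DESeq2 with the same paired model gave the same log2 fold change of 0.43 and an adjusted P of 0.0462, and the adjusted P value over all alternatives ran from 0.0462 to 0.938, the highest without the mouse block. The macrophage markers *Adgre1*, *Mrc1*, *Fcgr1*, and *Maf*, which DESeq2 also called higher, had log2 fold changes of 0.55, 0.68, 0.56, and 0.77 (edgeR, none past the threshold). *Cd163* and *Csf1r* of the same list had -0.96 and -0.21. The summed markers of mast cells, fibroblasts, and dendritic cells were lower in FCGR4+ libraries of 4 of 4 mice. The part of the cell makeup in the *Mertk* difference was not tested.

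*Axl*, the TAM receptor that binds GAS6 but not protein S with high affinity (ENSMUSG00000002602, chr7:25757273-25788705), was at 709, 548, 337, and 363 CPM in FCGR4+ macrophages. In FCGR4- macrophages it was at 600, 309, 239, and 419 CPM. Mouse 1 had the highest value in both populations, and mouse 4 went against the other mice, with per-mouse log2 ratios of 0.24, 0.83, 0.49, and -0.21. The log2 fold change was 0.34 (SE 0.185; adjusted P = 0.585, edgeR), and its interval ran from a 0.934-fold to a 1.71-fold level.

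*Tyro3*, the TAM receptor best known from the nervous system (ENSMUSG00000027298, chr2:119797733-119818104), had 3, 0, 0, and 6 counts in FCGR4+ and 0, 11, 51, and 18 counts in FCGR4- libraries of mice 1 to 4. It did not reach 10 counts in 4 libraries and was not tested in the main fit. It entered the fits with no filter on low counts, without mouse 1, and of mice 3 and 4 alone, where edgeR's adjusted P was between 0.416 and 0.894. Its highest value, 0.921 CPM in the FCGR4- library of mouse 3, was in the library with the highest fibroblast matrix sum (1595 CPM) and the highest neutrophil sum (2132 CPM). The part of these cells in the *Tyro3* counts was not tested.

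Expressed per kilobase of exon, so that genes can be compared with each other, *Axl* made up 75.8% to 88.3% of the summed TAM receptor level in FCGR4+ and 71.1% to 91.0% in FCGR4- libraries. *Mertk* made up 11.7% to 24.2% and 8.91% to 28.9%, and *Tyro3* at most 0.271%. The ratio of *Axl* to *Mertk* was lowest in mouse 2, at 3.13 in FCGR4+ and 2.46 in FCGR4- macrophages, and was between 5.60 and 10.2 in the libraries of the other mice. In both populations of every mouse, therefore, the order of the receptors was *Axl*, *Mertk*, *Tyro3*.

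**Figure D2:**
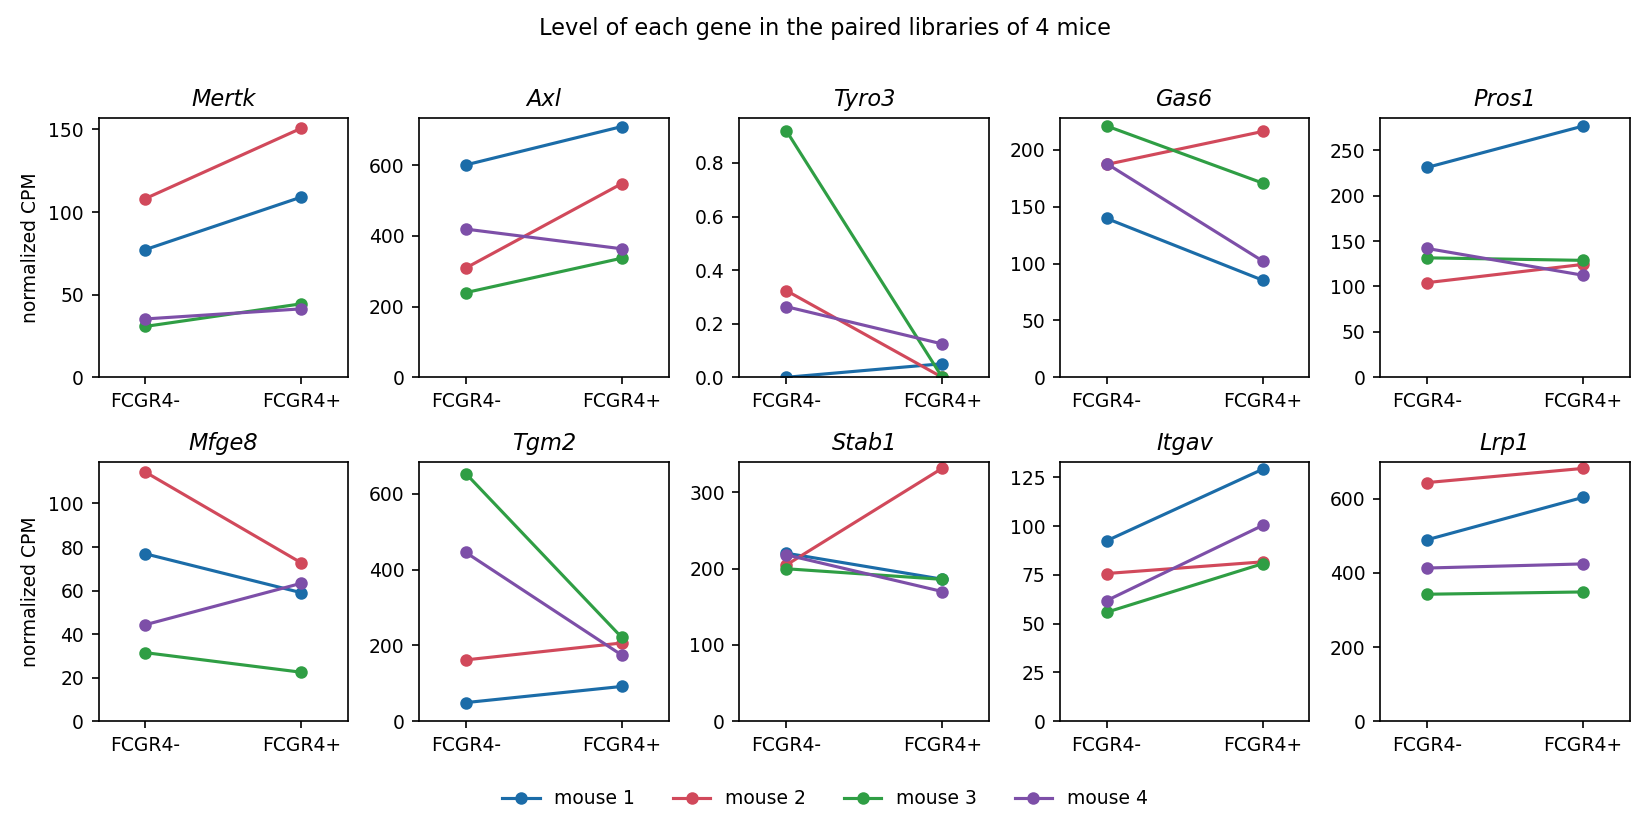
Normalized CPM of each of the 10 genes (each panel with its own axis, starting at 0) in the FCGR4- and FCGR4+ library of each of 4 mice, a line joining the libraries of 1 mouse. The FCGR4+ point of *Mertk*, *Itgav*, and *Lrp1* lies above the FCGR4- point in 4 of 4 mice, that of *Tgm2* lies above in mice 1 and 2 and below in mice 3 and 4, and *Tyro3* stays below 1 CPM.

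The TAM ligands showed no common direction. *Gas6* (ENSMUSG00000031451, chr8:13465374-13494490) was at 85.4, 216, 171, and 102 CPM in FCGR4+ and at 140, 187, 221, and 188 CPM in FCGR4- macrophages of mice 1 to 4. FCGR4+ cells had less in mice 1, 3, and 4 and more in mouse 2, with log2 ratios of -0.71, -0.37, and -0.88 against 0.21, and the ranges overlapped. The log2 fold change of -0.44 had an SE of 0.198 and an adjusted P of 0.527 (edgeR), and DESeq2 gave 0.309. *Gas6* is made by fibroblasts as well as macrophages, and fibroblast matrix genes were lower in FCGR4+ libraries of all 4 mice, mouse 2 included, where they summed to 209 CPM against 371 CPM. Of 9 tested fibroblast markers outside the matrix, 3 fell, with sums of 11.6 to 17.7 CPM against 22.2 to 115 CPM. The part of fibroblast RNA in the *Gas6* difference was not tested.

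*Pros1*, which encodes protein S (ENSMUSG00000022912, chr16:62854307-62929346), was at 277, 124, 129, and 112 CPM in FCGR4+ and at 231, 104, 132, and 142 CPM in FCGR4- macrophages. Mouse 1 stood above the other mice in both populations, and the populations differed little within a mouse. The log2 fold change was 0.04 (SE 0.151; adjusted P = 0.943, edgeR), and its interval held levels from 0.802-fold to 1.31-fold. *Gas6* exceeded *Pros1* per kilobase in 6 of 6 libraries of mice 2, 3, and 4, by ratios of 1.46 to 2.88, but not in mouse 1, where the ratio was 0.495 in FCGR4+ and 0.970 in FCGR4- macrophages.

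Of the molecules that engage integrins, *Itgav* (ENSMUSG00000027087, chr2:83724397-83806916) had the most even difference. It was at 129, 81.7, 80.8, and 100 CPM in FCGR4+ and at 92.5, 75.7, 55.9, and 61.8 CPM in FCGR4- macrophages of mice 1 to 4. Each mouse had more in its FCGR4+ cells, by log2 ratios of 0.48, 0.11, 0.53, and 0.70, and the FCGR4- library of mouse 1 alone overlapped the FCGR4+ range. The log2 fold change was 0.46 with an SE of 0.145 (95% CI, 0.12 to 0.80). In edgeR its unadjusted P was 0.0156 and its adjusted P 0.333, whereas DESeq2 gave 0.45 with an adjusted P of 0.0829. The 4 macrophage markers given beside *Mertk* were also higher in FCGR4+ cells of 4 of 4 mice, none past edgeR's threshold, and *Cd163* was lower. Mouse 2 had the smallest ratio for *Itgav*, *Mrc1* (0.34), and *Maf* (0.16) and the largest for *Adgre1* (0.87) and *Fcgr1* (0.86). Summed markers of mast cells, fibroblasts, and dendritic cells were lower in FCGR4+ libraries. The part of the cell makeup in the *Itgav* difference was not tested. *Gm13684* lies on the opposite strand over 5.90% of the exon bases of *Itgav*, and since strand was not used in counting, reads of the pair could not be told apart there.

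*Mfge8* (ENSMUSG00000030605, chr7:79133768-79149060) was at 59.0, 72.7, 22.5, and 63.4 CPM in FCGR4+ and at 76.9, 114, 31.5, and 44.3 CPM in FCGR4- macrophages. FCGR4+ cells had less in mice 1, 2, and 3 and more in mouse 4, and mouse 3 was lowest in both populations. The log2 fold change was -0.25 (SE 0.209; adjusted P = 0.688, edgeR). Per kilobase, *Mfge8* was present at 0.0714 to 0.375 of the *Gas6* level of the same library.

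*Tgm2* (ENSMUSG00000037820, chr2:158116402-158146436) had the widest range between libraries of the 9 tested genes. It was at 91.6, 206, 221, and 174 CPM in FCGR4+ macrophages and at 49.0, 162, 653, and 445 CPM in FCGR4- macrophages. FCGR4+ cells had more *Tgm2* in mice 1 and 2, with log2 ratios of 0.90 and 0.35, and less in mice 3 and 4, with log2 ratios of -1.56 and -1.35. Over all mice the log2 fold change was -0.42 (SE 0.438; adjusted P = 0.746, edgeR), a mean over ratios of opposite sign. A fit that let the difference vary with the animal ID prefix, chosen after these ratios had been seen, gave a further log2 difference of -2.09 in mice 3 and 4 (SE 0.255; unadjusted P = 2.4e-04; adjusted P = 0.303, edgeR). In that fit 13.8% of all tested genes had an unadjusted P under 0.05 and 0% passed the threshold. In mice 3 and 4 alone *Tgm2* had a log2 fold change of -1.48 with an adjusted P of 0.0905, where 0.397% of genes passed (0.337% lower), and in mice 1 and 2 alone it had 0.63 with an adjusted P of 0.523. The FCGR4- libraries of mice 3 and 4 also had the highest neutrophil sums, 2132 and 515 CPM, and the highest FCGR4- monocyte sums, and the part of these cells was not tested. Genes on the opposite strand, *Gm20412* and *Rprd1b*, cover 21.8% of the exon bases of *Tgm2*, the largest such share among the 10 genes.

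The remaining receptors had small fitted differences between the populations. *Lrp1* (ENSMUSG00000040249, chr10:127538161-127621148) was at 604, 682, 349, and 424 CPM in FCGR4+ and at 489, 644, 343, and 413 CPM in FCGR4- macrophages. All 4 mice had slightly more in FCGR4+ cells, by log2 ratios of 0.03 to 0.30, and the log2 fold change was 0.11 (SE 0.126; adjusted P = 0.761, edgeR). *Stab1* (ENSMUSG00000042286, chr14:31139013-31168641) was at 186, 332, 186, and 170 CPM in FCGR4+ and at 220, 205, 200, and 218 CPM in FCGR4- macrophages. Mouse 2 had more in FCGR4+ cells (log2 ratio 0.70) and the other mice less (-0.10 to -0.36). The log2 fold change was -0.01 (SE 0.196; adjusted P = 0.994, edgeR), a mean over ratios of opposite sign. The intervals held levels from 0.881-fold to 1.33-fold for *Lrp1* and from 0.724-fold to 1.37-fold for *Stab1*.

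**Figure D3:**
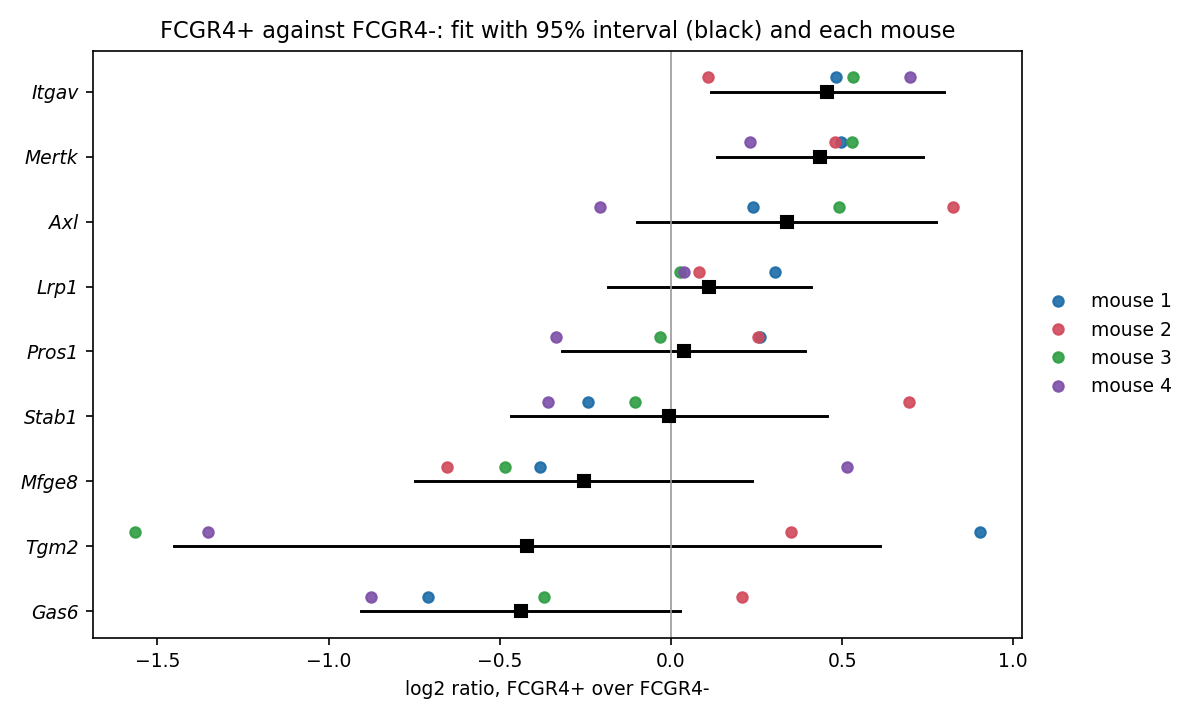
Log2 ratio of FCGR4+ over FCGR4- for the 9 tested genes (x axis), with the fitted log2 fold change (black square), its 95% confidence interval (line), and the ratio of each of 4 mice (colored points). The intervals of *Mertk* (0.13 to 0.73) and *Itgav* (0.12 to 0.80) lie above 0 before adjustment over all genes, and the points of *Tgm2* fall on both sides of 0.

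Counted over the 9 tested genes, 0 passed the threshold of an adjusted P under 0.1 by edgeR's quasi-likelihood test, where 1.27% of all 17095 tested genes passed (0.0819% higher and 1.19% lower in FCGR4+ macrophages). At an unadjusted P under 0.05 there were 2, *Mertk* and *Itgav*, against 9.77% of all genes. DESeq2 called the same 2 genes, both higher, where it called 5.99% of all genes in either direction and 1.12% higher. No gene of the 9 had populations that did not overlap (3.91% of all genes), 3 were higher in FCGR4+ macrophages of 4 of 4 mice (8.38% of all genes), and 0 were lower in 4 of 4 mice (10.5%). The remaining 6 had mice of both directions. The median log2 fold change was 0.04, beside -0.00 over all genes. For 8 of the 9, *Tgm2* being the exception, the 95% confidence interval lay within a 2-fold difference in either direction, and the median SE was 0.185 against 0.247 over all genes. A missed threshold does not show that the populations had equal levels, but these intervals bound the difference.

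The order of the levels per kilobase was similar in both populations. In FCGR4+ macrophages *Axl* was first with a mean of 97.2 ± 34.6 CPM per kilobase (SD, n = 4), followed by *Gas6* (56.4 ± 23.9), *Pros1* (39.3 ± 19.0), *Tgm2* (37.6 ± 12.5), *Lrp1* (29.1 ± 8.72), *Stab1* (21.2 ± 7.37), *Mertk* (19.9 ± 12.2), *Mfge8* (11.6 ± 4.69), *Itgav* (9.12 ± 2.11), and *Tyro3* (0.00706 ± 0.00950). In FCGR4- macrophages *Tgm2* moved up to follow *Gas6*, at 71.0 ± 59.4 CPM per kilobase, beside *Gas6* at 72.2 ± 13.1 and ahead of *Pros1* at 37.2 ± 13.4, and the other genes kept their order. Few neighbors in this order were separated in every mouse. In FCGR4+ macrophages *Lrp1* lay above *Stab1* and *Itgav* above *Tyro3* in 4 of 4 mice, and in FCGR4- macrophages *Mfge8* lay above *Itgav* and *Itgav* above *Tyro3*. Every other neighboring pair changed places in at least 1 mouse.

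**Figure D4:**
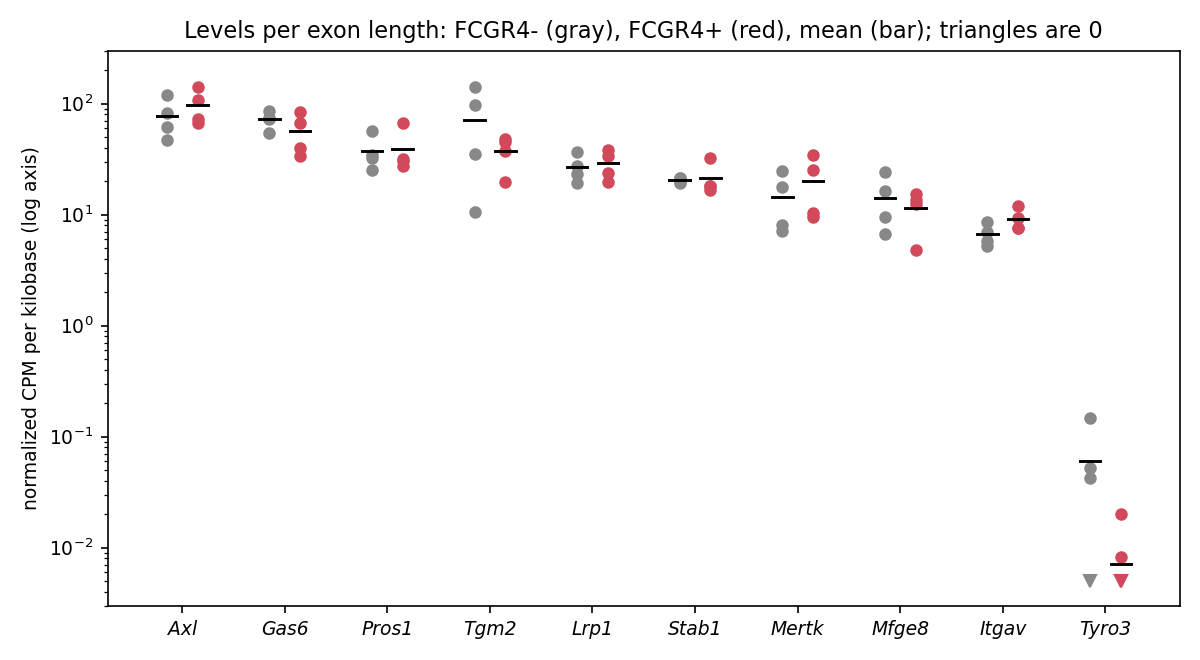
Normalized CPM per kilobase of exon (log axis) for the 10 genes, ordered by their mean in FCGR4+ macrophages. Gray points are the 4 FCGR4- and red points the 4 FCGR4+ libraries, black bars are means, and triangles mark libraries with 0 counts; 9 genes lie within the same 2 orders of magnitude, and *Tyro3* lies below them, with means of 0.0608 and 0.00706.

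For each of the 9 tested genes mouse held a larger share of the spread than population did. The mouse share pools differences among 4 mice and the population share a single difference, which favors mouse. When the spread of log2 CPM over the 8 libraries was divided into mouse, population, and the rest, mouse held 95.3% for *Lrp1*, 93.1% for *Pros1*, 92.3% for *Mertk*, and 86.5% for *Mfge8*. The population share was largest for *Itgav*, 40.2%, followed by *Gas6* with 21.5% and *Axl* with 11.5%, and smallest for *Stab1*, 0.00213%. For *Stab1* the rest, 56.7%, exceeded the mouse share of 43.3%. The median mouse share was 74.2% over the 9 genes and 57.0% over all tested genes, and the median population share was 3.55% and 9.49%. For *Mertk* the rest was 0.539%, so its 4 pairs moved nearly in parallel, with mouse means 1.79 apart on the log2 scale. The means of the 4 mice spanned more than the fitted population difference for all 9 genes, as they did for 89.2% of all tested genes.

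**Figure D5:**
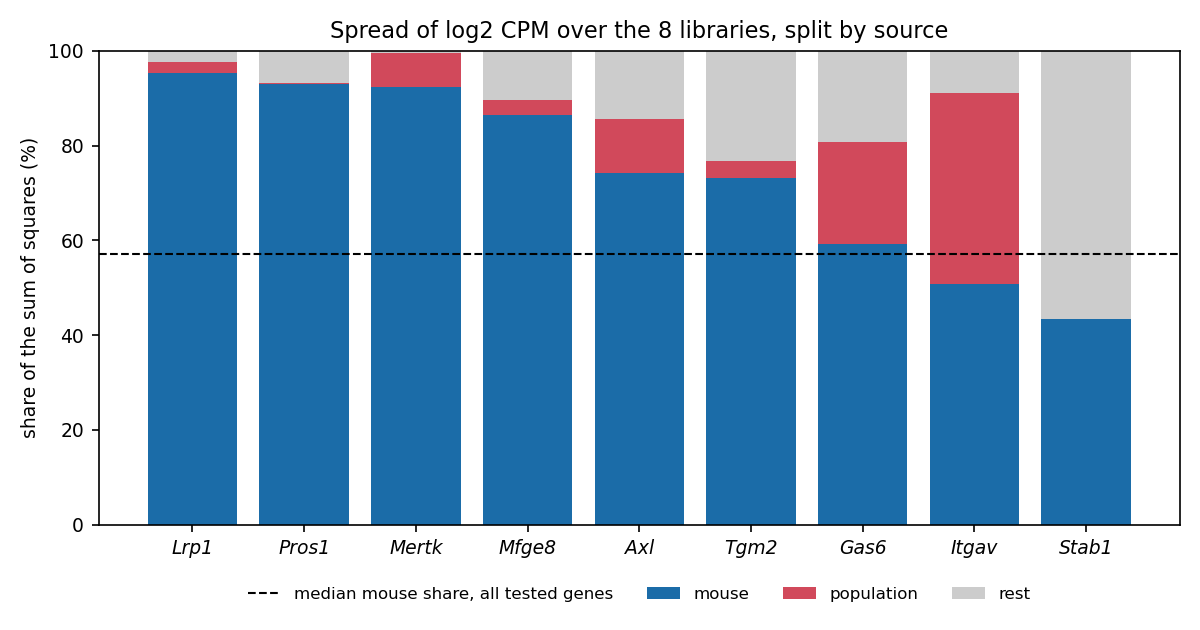
Share of the sum of squares of log2 CPM over the 8 libraries (%, y axis) that lies between mice (blue), between populations (red), and in the rest (gray) for the 9 tested genes. The dashed line is the median mouse share over all tested genes, 57.0%, and 7 of the 9 genes exceed it.

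The genes whose pattern over the 8 libraries lay closest to that of *Mertk*, by the root mean square difference of centered log2 CPM, were *Sort1* (0.252), *Ttyh2* (0.319), and *Anpep* (0.332), where the median over 10010 genes was 0.826. For *Axl* they were *Phka2* (0.121), *Pianp* (0.136), and *Pola1* (0.167), with a median of 0.557. For *Gas6* they were *Dcun1d3* (0.208), *Gramd3* (0.209), and *Nlrx1* (0.233), with a median of 0.588. None of these 9 differed between populations past the threshold (adjusted P between 0.510 and 0.997, edgeR).

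Genes that work beside these molecules were read from the same fit. Of 19 other receptors for apoptotic cells, 16 were tested and 0 passed the threshold by edgeR (1.27% of all tested genes). By edgeR 4 had an unadjusted P under 0.05 (9.77% of all genes). DESeq2 called 1 higher, where it called 1.12% of all genes higher and 5.99% in either direction. The list's median log2 fold change was 0.15. The highest was *Stab2*, the relative of *Stab1*, at 24.3, 13.2, 22.2, and 14.4 CPM in FCGR4+ against 17.2, 6.92, 11.7, and 11.3 CPM in FCGR4- macrophages (log2 fold change 0.67; adjusted P, 0.222 in edgeR and 0.0315 in DESeq2). Every mouse had more *Stab2* in FCGR4+ cells. The lowest was *Cd300lf*, a phosphatidylserine-binding receptor of the CD300 family, at -0.70 on the log2 scale (adjusted P = 0.447, edgeR).

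Of 15 other bridging molecules, 12 were tested, 0 were called higher, and 1 was called lower by edgeR (0.0819% and 1.19% of all tested genes). The called gene was *Ptx3*, a pentraxin that binds dying cells and C1q, which fell by 2.80 on the log2 scale (SE 0.384, adjusted P = 0.0396, edgeR). It was at 0.0843, 0.0416, 7.19, and 0.415 CPM in FCGR4+ and at 0.708, 1.12, 30.7, and 2.64 CPM in FCGR4- macrophages, mouse 3 being highest in both, and the FCGR4+ values of mice 1 and 2 rest on 5 and 2 counts. The FCGR4- library of mouse 3 had the highest neutrophil (2132 CPM) and fibroblast matrix (1595 CPM) sums, and its FCGR4+ library the highest of FCGR4+ libraries (484 and 303 CPM). The part of these cells was not tested. The call was lost without mouse 1 (adjusted P = 0.113, edgeR), mouse 3 (0.119), or mouse 4 (0.116), and without the mouse block (0.928). *C1qa*, a chain of the complement protein C1q, was the highest of the list, at 1034, 1177, 1267, and 1034 CPM in FCGR4+ against 944, 571, 587, and 864 CPM in FCGR4- macrophages. The populations did not overlap, but edgeR gave the log2 fold change of 0.64 (SE 0.206) an adjusted P of 0.345, and DESeq2 one of 0.0639. Where DESeq2 called 1.12% of all genes higher and 5.99% in either direction, it called 3 genes of this list higher and 2 lower. Beside *C1qa* and *Ptx3* these were *C1qb*, *C1qc*, and *C3*, named after their values were seen. *C1qb* and *C1qc* had log2 fold changes of 0.62 each, for which the adjusted P values were 0.297 and 0.321 in edgeR and 0.0430 and 0.0524 in DESeq2. *C3*, the central complement component, was at 134, 170, 119, and 118 CPM in FCGR4+ and at 246, 244, 671, and 269 CPM in FCGR4- macrophages, without overlap. Its log2 fold change was -1.26 (SE 0.313; adjusted P, 0.196 in edgeR and 0.00075 in DESeq2), and its highest value was also in the FCGR4- library of mouse 3.

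Of 5 β chains that can pair with the αv integrin, 3 were tested and 0 passed, with 0 at an unadjusted P under 0.05 by edgeR (9.77% of all genes). *Itgb8*, too sparse for the main fit, had 4, 2, 3, and 4 counts in FCGR4+ and 21, 29, 116, and 8 counts in FCGR4- libraries of mice 1 to 4. It was lower in FCGR4+ libraries of 4 of 4 mice. In the alternative fits that it entered, edgeR's adjusted P was between 0.120 and 0.584. *Itgb5*, whose product forms with αv a receptor for MFGE8, was at 263 to 644 CPM in FCGR4+ and 270 to 415 CPM in FCGR4- macrophages (log2 fold change 0.12, adjusted P = 0.809, edgeR). *Itgb3*, the other such partner, was at 0.319 to 1.25 CPM and 0.600 to 2.15 CPM (log2 fold change -0.99, adjusted P = 0.678, edgeR).

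Of 16 genes that modify, shed, or regulate the TAM system, all were tested and 0 passed the threshold by edgeR. By edgeR 3 had an unadjusted P under 0.05 (9.77% of all genes), and DESeq2 called 2 higher (1.12% of all genes). *Pparg*, a lipid-sensing nuclear receptor, was the highest, at 0.64 on the log2 scale (adjusted P, 0.262 in edgeR and 0.0399 in DESeq2) and with more in FCGR4+ cells of 4 of 4 mice. *Socs1*, a feedback inhibitor of cytokine signaling, was the lowest at -0.52 (adjusted P = 0.656, edgeR).

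Of 6 genes of signals that restrain engulfment, 2 fell by edgeR, beside 1.19% of all tested genes. *Cd24a*, the ligand of the restraining pair CD24 and Siglec-G, was at 4.94, 23.2, 51.2, and 25.8 CPM in FCGR4+ and at 45.2, 97.7, 193, and 80.8 CPM in FCGR4- macrophages, and fell by 2.19 on the log2 scale (SE 0.262, adjusted P = 0.0232, edgeR). *Siglecg*, the receptor, was at 0.169 to 0.271 CPM and 1.52 to 4.37 CPM and fell by 3.46 (SE 0.504, adjusted P = 0.0487, edgeR). Both genes are also expressed by granulocytes or lymphocytes. Summed markers of neutrophils, of mast cells and basophils, and of T and NK cells were higher in FCGR4- libraries of 4 of 4 mice. B cell markers summed to more in FCGR4- libraries of 3 of 4 mice and to less in mouse 2. In mouse 2 *Siglecg* was lower in FCGR4+ macrophages, with a log2 ratio of -3.36. The part of such cells was not tested. *Cd24a* was no longer called without mouse 2 (adjusted P = 0.107, edgeR) or without the mouse block (0.492), and *Siglecg* without mouse 1 (0.157), mouse 2 (0.174), or mouse 4 (0.136). *B2m*, a component of MHC class I, was the highest of this list, at 0.42 on the log2 scale and with more in FCGR4+ cells of 4 of 4 mice (adjusted P, 0.322 in edgeR and 0.0523 in DESeq2). DESeq2 called 1 gene of this list higher and 2 lower, beside 1.12% of all genes called higher and 5.99% in either direction. Over the 5 lists, 53 of 61 genes were tested, 0 were called higher, and 3 were called lower, beside 1.27% of all tested genes called in either direction. Over the same lists DESeq2 called 7 higher and 4 lower, beside 1.12% of all genes called higher and 5.99% in either direction.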

How the data were processed

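Bulk RNA-Seq libraries of FCGR4+ and FCGR4- macrophages from eWAT of 4 mice were analyzed. The deposited values are raw counts per gene: per the file header and the study's methods, the authors mapped reads to mm10 with STAR and counted pairs on GENCODE vM18 with featureCounts v1.6.3, multimapping pairs included and strand unused. Counting each placement of a multimapping pair and ignoring strand can add counts of copies and of antisense genes. 0 value columns were left out. Totals lay between 35992794 and 66856746 counts per library.

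Population and mouse were taken from the sample labels. Libraries of 1 mouse deviated together from their population means (correlations 0.291 to 0.428, at most 0.0116 between mice), and the mouse pairs them. No 2 libraries of a population were duplicates. The 17095 genes that reached 10 counts in 4 or more of the libraries were normalized by TMM and tested by edgeR 4.0.16 (R 4.3.3, quasi-likelihood, legacy defaults) with a block for each mouse. P values were adjusted over all genes after Benjamini and Hochberg and called under 0.1. The authors' own test was DESeq2 with mouse in the model, and DESeq2 1.42.0 was run as an alternative. Each SE was derived from the F statistic, as the fold change on the log2 scale over its root. Per-mouse ratios used log2 CPM with a prior count of 2. Intervals and the floor of 3 counts cover the spread between these mice and counting error, respectively. Symbols were matched for 54079 of 54146 gene IDs. Shared sequence was sought with 50-base words over GENCODE M21 of the same build. The scripts were tested on simulated data. The gene lists and the 10 genes were chosen with earlier results of these data known, as were the alternatives. Of the other lists, the text names those called and, among genes averaging 1 CPM or more, the one with the most positive and the one with the most negative difference, and, for likeness, the 3 nearest genes with a mean of at least 5 CPM.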

Additional observations from a re-analysis of the deposited data

Results flagged for a closer look

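For *Mertk*, the log2 ratio of mouse 4 (0.23) lay apart from those of the other mice (0.48 to 0.53), its gap to the nearest ratio being 0.830 of the whole range. Mouse 1 lay apart for *Pros1* in FCGR4+ macrophages, at 277 CPM against 112 to 129 CPM (gap 0.900 of the range), and its FCGR4- library, at 231 CPM, was also the highest of its population. Mouse 2 lay apart for *Stab1* in FCGR4+ macrophages, at 332 CPM against 170 to 186 CPM (gap 0.900 of the range), whereas its FCGR4- library, at 205 CPM, lay within the range of the other mice. Over 27 sets of 4 values examined this way, chance gives about 1.35 such gaps. The difference between populations had one sign in both mice of 1 animal ID prefix and the opposite sign in both mice of the other for *Tgm2* and *Pros1*. For *Tgm2* the log2 ratio in mice 3 and 4 minus that in mice 1 and 2 was -2.09 (adjusted P = 0.303, edgeR), and for *Pros1* it was -0.44 (adjusted P = 0.402, edgeR), so neither passed the threshold over all genes. The mean difference of *Stab1* also changed sign between the prefixes, by -0.46 (adjusted P = 0.587, edgeR), but mice 1 and 2 themselves had opposite signs. With 2 mice under each prefix, the prefix and the individual mice cannot be told apart.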

How the results depend on the processing

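The 217 calls over all genes (14 higher, 203 lower) became 48 without the replicate block (1 higher, 47 lower), 1024 by DESeq2 (192 and 832), 629 by edgeR's newer quasi-likelihood method (57 and 572), 1054 with no filter (159 and 895), 115 in mice 1 and 2 alone (7 and 108), 72 in mice 3 and 4 alone (61 lower), 76 at a threshold of 0.05 (2 and 74), and 78 to 162 leaving out 1 mouse (2 to 9 higher, 76 to 153 lower). Scaling by library size alone left 8 calls higher and put the median log2 fold change of all genes at -0.09. Of the 10 genes described, 2 passed by DESeq2 (*Mertk*, *Itgav*) and 1 in mice 3 and 4 alone (*Tgm2*), and 0 under each other alternative run. Of the other pathway genes, 3 passed, 1 without the block, 11 by DESeq2 (7 higher, 4 lower), 12 with no filter, 1 in mice 3 and 4 alone, and 1 to 2 leaving out 1 mouse. Leaving out the replicate block changed no call among the 10 genes but ended those of *Ptx3* and *Cd24a*. The sign turned for *Pros1* with library size alone (-0.052), in mice 3 and 4 alone (-0.20), and leaving out 1 mouse (-0.038 to 0.16), and for *Tgm2* in mice 1 and 2 alone (0.63). It turned for *Stab1* without the block (0.052), with no filter (0.014), in mice 1 and 2 alone (0.23), and leaving out 1 mouse (-0.20 to 0.12), and for *Itgb5* in mice 3 and 4 alone (-0.14) and leaving out 1 mouse (-0.015 to 0.23). The cause was not tested. Over 126 values of the 9 tested genes, 112 kept direction and call. *Tgm2* moved from -0.42 to -0.028 without mouse 3, -0.078 without mouse 4, -0.68 without mouse 2, -0.87 without mouse 1, and -0.92 without the block. With each pair of mice alone (1 and 2, then 3 and 4), *Axl* was 0.53 and 0.12, *Mfge8* -0.52 and -0.0023, *Lrp1* 0.19 and 0.012, *Itgav* 0.30 and 0.60, *Gas6* -0.25 and -0.64, and *Cd300lf* -0.19 and -1.22, and *Lrp1* was 0.023 with library size alone. Among differences that did not pass, others moved by over 1.5 times when 1 mouse was left out: *Mfge8* from -0.25 to -0.088 without mouse 2 and -0.51 without mouse 4, *Lrp1* from 0.11 to 0.049 without mouse 1, *Axl* from 0.34 to 0.21 without mouse 2 and 0.52 without mouse 4, and *Gas6* from -0.44 to -0.29 without mouse 4. So did *Itgb3*, from -0.99 to -1.70 without mouse 1 and -0.36 without mouse 3, *Socs1*, from -0.52 to -0.24 without mouse 3, and *Cd300lf*, from -0.70 to -0.43 without mouse 3. With no filter *Cd300lf* passed (adjusted P = 0.0543, edgeR), as did *Stab2* (0.0793), *C1qa* (0.0356), and *Pparg* (0.0442). *Tyro3* was too sparse for a fold to be read.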
